A study of Mus musculus with 4 samples.

Results

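The genes described here are 9 members of the type I interferon pathway: the receptor chains Ifnar1 and Ifnar2, the kinases Jak1 and Tyk2, the signal transducer Stat2, and the interferon regulatory factors Irf1, Irf7, Irf8 and Irf9. They are a list of symbols made with earlier results of these data known, and all 9 were found among the 32285 genes of the count tables. The study sequenced single cells from pancreatic ductal adenocarcinoma (PDAC) tumours of 4 mice, with 1 library for each mouse. All tumours came from 1 organoid line, KPC46, and the strain is given as B6/129 F1J, so every group shares the same tumour line. The 2 vehicle mice received Cremophor and the 2 treated mice received TAK-981 (subasumstat), an inhibitor of the enzyme that activates SUMO. Dose, schedule, tumour site, age and sex are not given in the sources used here, and neither is a batch.

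Type I interferons bind a receptor made of IFNAR1 and IFNAR2, whose tails carry the kinases TYK2 and JAK1. The kinases phosphorylate STAT proteins, and STAT2 joins IRF9 in the complex that binds interferon-stimulated response elements (ISRE). IRF7 is a target of that complex and drives further interferon transcription, IRF1 is a target of type II interferon, and IRF8 is a lineage factor of dendritic cells and monocytes. SUMO is a small protein attached to other proteins, and the SUMO pathway is known to restrain interferon genes.

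The 4 libraries, named vehicle 1, vehicle 2, TAK-981 1 and TAK-981 2, held between 2872 and 5556 barcodes, of which 2214 to 4408 were kept as cells. The median UMI count per kept cell was 2269 and 4152.5 with vehicle and 5024.5 and 12831 with TAK-981, so every treated library was the deeper one. Any 2 libraries shared between 1 and 10 cell barcodes. Cells were clustered and named from marker lists, which gave 7 classes with 15 or more cells per library: epithelial, endothelial, fibroblast, neutrophil, dendritic, T or NK, and macrophage or monocyte cells. The summed level of the 10 epithelial markers was 3494 to 5186 CPM (the standard depth-scaled unit for counts, here relative to all UMIs of the class in a library) in the epithelial class, and all 10 were detected. Within that class the cells did not mix between groups, since clusters 4, 5 and 11 held mostly vehicle cells and clusters 16, 17 and 22 mostly TAK-981 cells.

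To show what the start sites of these genes hold, the 250 bases before the RefSeq start of 5 members follow, from build GRCm38.p6, each read 5′ to 3′ on the gene's own strand. Capitals mark a gamma-activated sequence (GAS, TTCNNNGAA, its own reverse complement) or an ISRE core (GAAANNGAAA or its reverse complement TTTCNNTTTC), and the Irf7 window is shown because it holds neither and Irf7 had the one called change below. The windows are chr16:91372533-91372782 on the plus strand, chr11:53769764-53770013 on the plus strand, chr8:120736108-120736357 on the plus strand, chr10:128270248-128270497 on the plus strand and chr7:141266425-141266674 on the minus strand.
Ifnar2: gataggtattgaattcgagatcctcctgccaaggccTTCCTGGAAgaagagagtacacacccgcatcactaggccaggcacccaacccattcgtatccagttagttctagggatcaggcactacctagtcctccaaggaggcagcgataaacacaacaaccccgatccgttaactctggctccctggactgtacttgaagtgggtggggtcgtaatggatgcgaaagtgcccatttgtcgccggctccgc
Irf1: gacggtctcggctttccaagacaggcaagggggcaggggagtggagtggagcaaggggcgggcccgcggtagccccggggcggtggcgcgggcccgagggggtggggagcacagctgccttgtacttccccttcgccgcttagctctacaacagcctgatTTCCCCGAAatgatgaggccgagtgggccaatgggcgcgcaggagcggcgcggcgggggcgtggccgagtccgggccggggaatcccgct
Irf8: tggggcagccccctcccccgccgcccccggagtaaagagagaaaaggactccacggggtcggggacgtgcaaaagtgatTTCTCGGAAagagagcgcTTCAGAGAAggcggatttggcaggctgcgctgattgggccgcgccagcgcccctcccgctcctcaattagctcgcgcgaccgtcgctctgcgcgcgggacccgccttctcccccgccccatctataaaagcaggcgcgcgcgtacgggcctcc
Stat2: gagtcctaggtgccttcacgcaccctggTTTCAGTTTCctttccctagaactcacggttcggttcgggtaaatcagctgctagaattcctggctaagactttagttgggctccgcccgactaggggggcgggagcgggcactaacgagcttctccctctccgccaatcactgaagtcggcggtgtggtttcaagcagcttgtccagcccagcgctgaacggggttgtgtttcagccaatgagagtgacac
Irf7: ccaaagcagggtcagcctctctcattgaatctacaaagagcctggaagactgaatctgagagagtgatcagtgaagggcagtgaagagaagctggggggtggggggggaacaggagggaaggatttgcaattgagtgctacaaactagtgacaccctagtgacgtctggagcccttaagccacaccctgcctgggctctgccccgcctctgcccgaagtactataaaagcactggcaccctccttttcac

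All 9 genes matched the promoter table, with 12 start sites among them. Over windows of 300 bases, which add the first 50 bases after the start, 4 of the 9 genes held a GAS motif: Irf1, Irf8, Ifnar2 and Ifnar1. The Irf1 match began 90 bases before the start, the Irf8 matches 171 and 153 bases before it, and the Ifnar2 match 214 bases before it. In Ifnar1 the match began 5 bases before the start and ran across it. Stat2 alone of the 9 held the ISRE core, beginning 222 bases before its start. No motif match overlapped another. Of the members' 12 windows, 4 held the GAS letters and 1 the ISRE letters. Among all 32851 windows of the table, 8.30% held the GAS letters and 3.44% the ISRE letters. These are matches of letters in a window, not measured binding.

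Across the 9 genes and 7 classes there were 63 possible comparisons of TAK-981 with vehicle, and 49 had enough UMIs to be tested. The test was edgeR's quasi-likelihood F test on UMIs summed per library and class, with p-values adjusted by the Benjamini-Hochberg method over all genes of the class and a threshold of 0.05. One passed, Irf7 in epithelial cells. In 22 of the 49, both TAK-981 libraries were above both vehicle libraries, and in 7 both were below. Over all genes tested, 20.1% (fibroblasts) to 27% (epithelial cells) were above in this way and 20.5% to 26.7% below. The filter on low counts asks for enough UMIs in as many libraries as a group holds. Some comparisons were therefore tested only because a group was high, and these counts carry no test. Values in the text are CPM of the class in that library after TMM scaling, in the order vehicle 1, vehicle 2, TAK-981 1, TAK-981 2, unless they are called unscaled.

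The counts by class are read against the same counts over all genes tested. In epithelial cells 1 of the 9 members tested was called, where 2.31% of 12744 genes were called in either direction and 0.549% called higher, and 6 members lay wholly above the vehicle libraries, where 27% of genes did. The members' median log2 fold change there was 0.51, and that of all genes tested was 0.01. With library totals as the scaling, an alternative chosen after seeing the data, the median of all genes shifted to 0.55 in epithelial cells and 4 members were called, Ifnar1, Ifnar2, Irf7 and Irf8. In macrophages or monocytes none of 9 members was called (0.131% of 10724 genes were, and 1468 genes had an unadjusted edgeR p below 0.05), and 3 were higher (background 23.5%) and 1 lower (22.7%) without overlap.

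Fibroblasts had 7 members tested and none called (1.01% of 8940 genes, 863 below an unadjusted p of 0.05), with 4 higher (background 20.1%) and 1 lower (20.5%). T or NK cells had 5 tested and none called (0.318% of 4093 genes, 542 unadjusted), with 1 higher (22.9%) and 1 lower (22.1%). Of 6 members tested in neutrophils none was called (0.318% of 2199 genes, 341 unadjusted), and 2 were higher (23.6%) and 1 lower (23.5%). Of 6 in dendritic cells none was called (4.97% of 2957 genes, 470 unadjusted), and 2 were higher (23.2%) and 2 lower (22.9%). Endothelial cells had 7 tested and none called (1.82% of 4680 genes, 756 unadjusted), with 4 higher (22.6%) and 1 lower (23.5%).

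**Figure D1:**
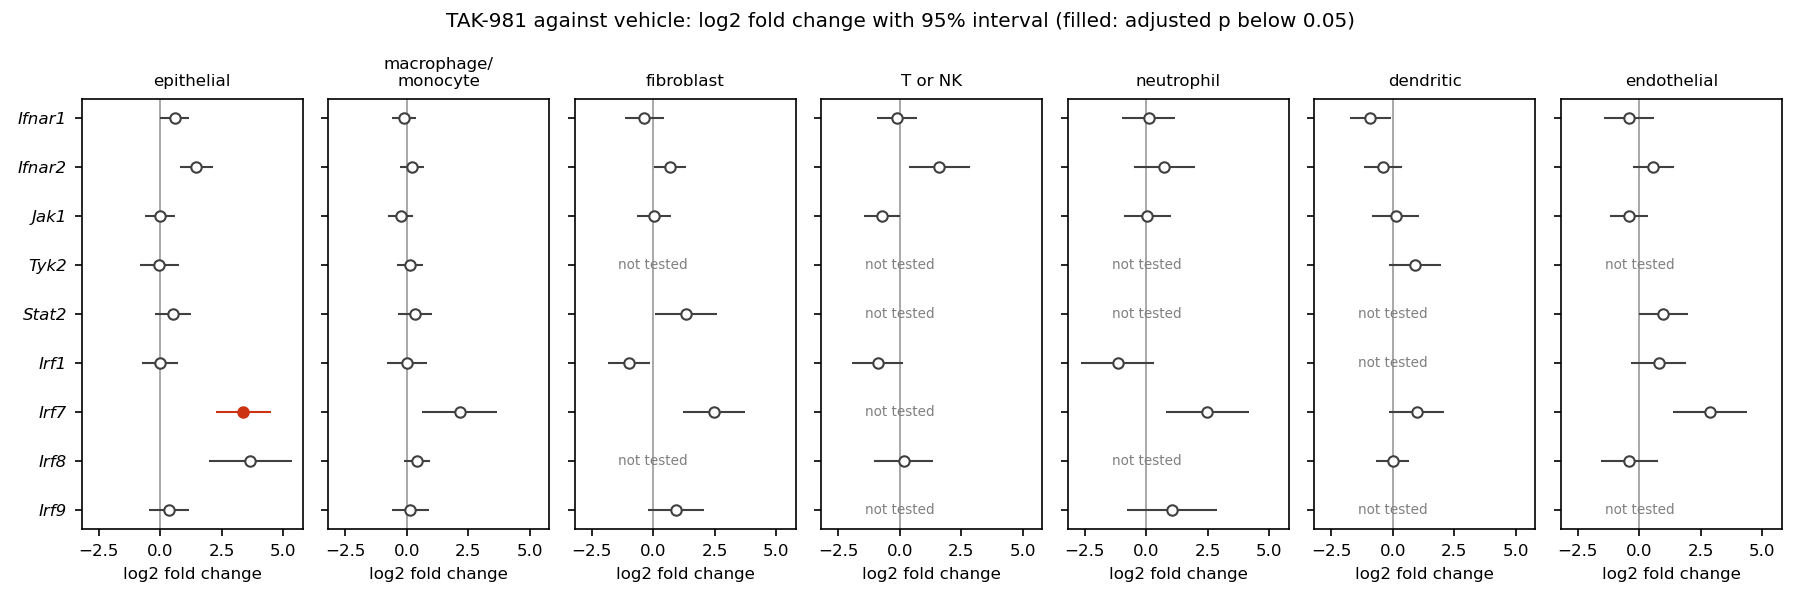
Log2 fold change of TAK-981 against vehicle (x axis) for each of the 9 genes (y axis), 1 panel per cell class; points are the edgeR estimates, bars their 95% intervals, and the filled point has an adjusted p below 0.05. Irf7 lies to the right of 0 in all 6 classes in which it was tested, and the filled point is Irf7 in epithelial cells at 3.38.

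Ifnar2, at chr16:91372783-91405589 on the plus strand of GRCm38, encodes the receptor chain that binds interferon most tightly and carries JAK1. In epithelial cells its level was 51.4 and 38.3 CPM in the control mice against 146 and 103 CPM in the mice given TAK-981. Both treated libraries were above both controls, with a log2 fold change of 1.47 ± 0.28 (SE) and an adjusted p of 0.0565, just outside the threshold; without TAK-981 2 they were 1.67 and 0.0368. The UMIs behind these values were 605, 707, 2867 and 6011. In the epithelial cells in which no leukocyte marker UMI was seen (777, 1854, 200 and 841 cells) the log2 fold change was 1.37 ± 0.27 with an adjusted p of 0.0383 by edgeR. Ifnar2 shares its strand with the overlapping gene model Gm21970, so reads common to both could be missing from its count.

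Ifnar2 was also read within single epithelial clusters. Cluster 4, marked by Prl and Rbp2, had unscaled levels of 43.0, 33.0, 129.9 and 101 CPM. Cluster 17, marked by Areg and Gprc5a, had 81.0, 37.4, 148 and 107 CPM. In all 3 epithelial clusters with at least 15 cells in each of the 4 libraries, both treated libraries were above both controls. No scaling was run within clusters, and without scaling the median of all genes in the class was shifted by 0.55 on the log2 scale. Cluster 16, led by Ttr and Ambp, had 86.6 CPM in vehicle 1 (23 cells) against 217 and 173 CPM in the treated libraries. Cluster 11, led by the cell cycle genes Cenpf and Top2a, did not show this, with 35.0 and 28.9 CPM in vehicle and 29.4 CPM in TAK-981 2, from 11 UMIs in 37 cells, while 12 cells of TAK-981 1 fell in it. The part of cluster makeup in the difference was not tested.

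In T or NK cells Ifnar2 measured 29.5, 12.1, 76.7 and 68.6 CPM, from 5, 1, 25 and 36 UMIs. The treated libraries were again the higher ones (log2 fold change 1.60 ± 0.56, adjusted p 0.253 by edgeR). In fibroblasts the values were 134, 115, 182 and 216 CPM, with no overlap (0.68 ± 0.29, adjusted p 0.496). Endothelial cells had 135, 113, 216 and 137 CPM (0.56 ± 0.38, adjusted p 0.504), and macrophages or monocytes had 159, 156, 186 and 175 CPM (0.20 ± 0.21, adjusted p 0.725). Neutrophils overlapped between groups at 70.3, 95, 78.4 and 195 CPM. Dendritic cells went the other way at 136, 164, 113 and 107 CPM (-0.40 ± 0.34, adjusted p 0.650). Ifnar2 was thus tested in 7 classes, was higher without overlap in 5 and lower without overlap in 1, and passed in none. Over all genes tested, 20.1% (fibroblasts) to 27% (epithelial cells) were higher and 20.5% to 26.7% lower without overlap. In T or NK cells only the treated libraries reached the limit of the filter on low counts, so Ifnar2 was tested there through them.

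Ifnar1, at chr16:91485238-91507441 on the plus strand, encodes the partner chain that carries TYK2. In epithelial cells it measured 17.3, 13.5, 25.1 and 21.3 CPM. Both treated libraries were above both controls, with a smaller difference than the Ifnar2 estimate (0.59 ± 0.25, adjusted p 0.239 by edgeR). In dendritic cells the values were 145, 164, 97.8 and 63.1 CPM, both treated libraries being lower (-0.91 ± 0.37, adjusted p 0.267). The other 5 classes overlapped, for example macrophages or monocytes at 123, 98.2, 102 and 102 CPM and T or NK cells at 112, 109, 92.1 and 112 CPM. Their log2 fold changes lay between -0.44 in endothelial cells and 0.09 in neutrophils.

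Because both chains were counted in the same cells, the ratio of their UMIs needs no scaling between libraries. This ratio was computed after the values above were seen. Epithelial cells had 2.98 and 2.84 Ifnar2 UMIs per Ifnar1 UMI with vehicle and 5.83 and 4.84 with TAK-981, a 1.83-fold higher ratio. Fibroblasts had 2.56, 2.74, 6.29 and 4.97, and endothelial cells 2.23, 1.32, 3.31 and 4.25, differences of 2.11-fold and 2.19-fold. In macrophages or monocytes the ratio was 1.30, 1.59, 1.82 and 1.71 (1.23-fold), and in dendritic cells 0.936, 1, 1.16 and 1.69 (1.45-fold). T or NK cells had 0.263, 0.111, 0.833 and 0.610, which rest on the few Ifnar2 UMIs given above. Neutrophils overlapped at 0.426, 0.926, 0.625 and 1.2, with 5 to 26 Ifnar2 UMIs a library. The treated libraries were above the controls in the other 6 of 7 classes. For each of the 6 the two-sided exact permutation p was 0.33, the smallest that 2 against 2 libraries allow. A ratio of this kind shows unequal change of the chains, not which of them changed.

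**Figure D2:**
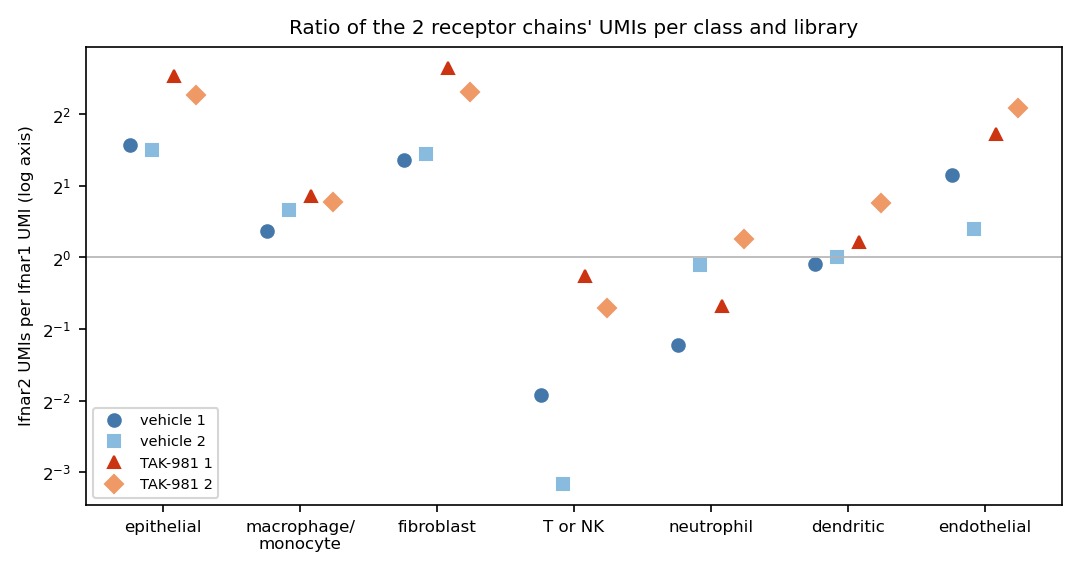
Ifnar2 UMIs per Ifnar1 UMI (y axis, log scale) in each of 7 cell classes (x axis), 1 point per library. Both TAK-981 points lie above both vehicle points in every class but neutrophils, with epithelial cells at 2.98 and 2.84 against 5.83 and 4.84.

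Jak1, at chr4:101152367-101265282 on the minus strand, encodes the kinase that serves many cytokine receptors. Epithelial cells had 66.2, 79.1, 59.7 and 83.7 CPM, the groups overlapping, and the 95% interval of the log2 fold change ran from -0.63 to 0.59. With library totals as the scaling the estimate was 0.52, close to the shift of the median of all genes. In T or NK cells Jak1 measured 626, 410.1, 313 and 324 CPM. Both treated libraries were below both controls there (-0.72 ± 0.33, adjusted p 0.380 by edgeR). Macrophages or monocytes (159, 167, 124 and 150.4 CPM) and endothelial cells (266, 289, 174 and 251 CPM) also had lower treated libraries, with log2 fold changes of -0.25 and -0.42. In none of the 7 classes was Jak1 higher in both treated libraries than in both controls.

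Tyk2, at chr9:21104068-21131243 on the minus strand, encodes the other receptor kinase and was sparse. It was tested in 3 classes. Epithelial cells had 4.59, 4.44, 4.18 and 4.66 CPM, with an estimate of -0.03 (0.51 with library totals as the scaling), and macrophages or monocytes had 22.2, 20.5, 22.1 and 25.1 CPM, both overlapping between groups. In dendritic cells the values were 33.5, 37.9, 77.2 and 53.4 CPM, from 18, 3, 15 and 11 UMIs, with both treated libraries higher (0.91 ± 0.47, adjusted p 0.406 by edgeR). Only the treated libraries reached the limit of the filter on low counts there, so Tyk2 was tested in dendritic cells through them. In the other 4 classes no library held more than 14 Tyk2 UMIs.

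Stat2, at chr10:128270559-128292849 on the plus strand, and Irf9, at chr14:55603571-55610030 on the plus strand, encode the partners of the ISRE-binding complex. Epithelial cells had 4.25, 4.39, 6.17 and 6.15 CPM of Stat2, both treated libraries being higher (0.51 ± 0.30, adjusted p 0.387 by edgeR). Stat2 in fibroblasts measured 19.6, 8.03, 20.04 and 45.5 CPM, so that TAK-981 1 lay only just above vehicle 1 (1.33 ± 0.56, adjusted p 0.481). Endothelial cells had 41.9, 30.9, 65.4 and 80.8 CPM (0.97 ± 0.45, adjusted p 0.324). Macrophages or monocytes overlapped at 29.96, 18.2, 26.3 and 35.0 CPM. Each of the 4 classes tested thus had a positive estimate, without overlap in 3, and none passed. Over all genes tested, 20.1% (fibroblasts) to 27% (epithelial cells) were higher without overlap. The classes come from the same 4 mice. In fibroblasts and endothelial cells vehicle 2 was below the limit of the filter on low counts (7.28 and 26.7 unscaled CPM). The treated libraries carried Stat2 through the filter there.

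Irf9 measured 4.59, 3.41, 4.95 and 5.26 CPM in epithelial cells (0.36 ± 0.34, adjusted p 0.596 by edgeR). Fibroblasts had 11.5, 10.0, 13.8 and 26.8 CPM (0.93 ± 0.50, adjusted p 0.613) and neutrophils 73.0, 15.2, 78.4 and 114 CPM (1.04 ± 0.82, adjusted p 0.622). In these 3 classes the groups did not overlap, although in neutrophils and epithelial cells the gap between vehicle 1 and TAK-981 1 was small beside the gap between the vehicle libraries. Macrophages or monocytes overlapped at 36.8, 18.9, 29.6 and 33.1 CPM. Vehicle 1 was above vehicle 2 in all 4 classes tested. Over all genes tested, 27% of epithelial, 20.1% of fibroblast and 23.6% of neutrophil genes were higher without overlap. In neutrophils vehicle 2 was below the limit of the filter on low counts (14.3 unscaled CPM), so the treated libraries carried Irf9 through it. Irf9 overlaps Rnf31 on the same strand, so reads common to both could be missing from its count.

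Irf1, at chr11:53770014-53778374 on the plus strand, encodes an activator of interferon-stimulated genes. Over all genes tested, 20.5% to 26.7% were lower without overlap in a class and 20.1% to 27% higher. Irf1 was lower without overlap in 2 of the 6 classes tested and higher in 1. In fibroblasts it measured 83.5, 49.2, 28.3 and 37.5 CPM, both treated libraries being lower (-0.99 ± 0.37, adjusted p 0.400 by edgeR). Neutrophils had 103, 76.0, 47.1 and 32.5 CPM, also without overlap, but the treated values rest on 3 and 2 UMIs (-1.16 ± 0.66, adjusted p 0.466). Only the vehicle libraries reached the limit of the filter on low counts there, so Irf1 was tested in neutrophils through them. T or NK cells overlapped at 189, 72.4, 52.2 and 95.2 CPM. Endothelial cells went the other way at 55.9, 51.5, 60.9 and 146 CPM (0.78 ± 0.51, adjusted p 0.493). Epithelial cells (14.6, 9.27, 13.1 and 10.6 CPM) and macrophages or monocytes (48.1, 22.8, 38.6 and 33.7 CPM) overlapped, with log2 fold changes of -0.01 (0.53 with library totals as the scaling) and 0.01. Dendritic cells had too few Irf1 UMIs for the test (49, 1, 3 and 3, at 70.9, 10.7, 14.7 and 14.2 unscaled CPM, the groups overlapping). With no filter on low counts Irf1 was called lower there (-2.21, adjusted p 0.0452 by edgeR). Without vehicle 2 its estimate was -2.60. Only vehicle 1 reached the limit of the filter in that fit, so Irf1 entered it through vehicle 1. Vehicle 1 was the higher vehicle library in all 6 classes tested.

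Irf7, at chr7:141262706-141266481 on the minus strand, encodes the factor that amplifies the interferon response. In epithelial cells its level was 1.70 and 0.813 CPM with vehicle and 15.4 and 10.2 CPM with TAK-981, from 20, 15, 302 and 597 UMIs. Both treated libraries lay far above both controls, a 10.4-fold rise (log2 fold change 3.38 ± 0.46, adjusted p 0.0256 by edgeR). Without vehicle 2 the log2 fold change was 2.90 with an adjusted p of 0.0546, so the call rests on that library. Phrf1 overlaps Irf7 on the opposite strand.

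Within single epithelial clusters Irf7 rested on few UMIs in the smaller group. Cluster 4 had 0.518, 0.649, 11.5 and 2.94 unscaled CPM from 3, 10, 3 and 2 UMIs, and cluster 17 had 2.25, 8.01, 10.6 and 9.18 CPM from 2, 3, 76 and 295 UMIs. Both treated libraries were above both controls in these 2 of the 3 clusters with enough cells, by little in cluster 17, and cluster 5 held a single Irf7 UMI. Without scaling the median of all genes in the class was shifted by 0.55 on the log2 scale. No scaling was run within clusters, so the small gap in cluster 17 is not read as a difference. In cluster 22, of which 374 of 389 cells came from TAK-981 2, that library had 25.4 CPM. The fold change of the class therefore spans clusters of different makeup, whose part in it was not tested.

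Markers of several other cell types were also higher in the treated libraries within the epithelial class, while others overlapped or were lower. The summed macrophage or monocyte markers measured 151, 92.9, 632 and 193 unscaled CPM, 8 of 12 being higher in both treated libraries than in both controls. Such counts use unscaled values, for which the share over all genes was not computed. After TMM scaling 27% of genes lay above in this way. Without scaling the median of all genes was shifted by 0.55 on the log2 scale. The acinar markers summed to 19.6, 4.95, 127 and 65.1 CPM (9 of 10) and the neutrophil markers to 18.9, 21.0, 106 and 50.4 CPM (7 of 8). The fibroblast markers summed to 25.1, 19.3, 89.7 and 38.1 CPM (3 of 9) and the endothelial markers to 8.52, 10.6, 24.3 and 38.5 CPM (4 of 8). The plasma and plasmacytoid dendritic sums were higher too. The erythroid markers were lower, at 63.2, 116, 0.377 and 0.121 CPM. The pericyte, mesothelial, B and mast sums overlapped. The dendritic markers summed to 45.1, 61.6, 101 and 60.5 CPM (3 of 10, with Xcr1 and Clec9a at 0) and the T or NK markers to 9.65, 9.95, 14.1 and 7.29 CPM (6 of 10, with Ncr1 at 0), both sums overlapping between groups. In the epithelial cells without a leukocyte marker UMI, the log2 fold change of Irf7 was 3.56 ± 0.41 with an adjusted p of 0.00723 by edgeR. These were 777 of 1089, 1854 of 2363, 200 of 619 and 841 of 1786 cells, so a larger share of the deeper treated cells was dropped. They were chosen by a short list of leukocyte genes only. The part of leukocyte RNA and of the acinar markers in the result was not tested.

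The share of epithelial cells with an Irf7 UMI was 1.19% and 0.635% with vehicle and 15.2% and 13.2% with TAK-981. Median depth in that class was 8837 to 12025 UMIs in vehicle cells and 19968 to 22940.5 in treated cells. With each cell thinned to 500 UMIs the shares were 0.184%, 0%, 2.26% and 0.728%, in the same order and without overlap. The 0 among the 2363 thinned cells of vehicle 2 allows a share of cells with a UMI at that depth of up to 0.127% by the limit of 3 counts, and the exact binomial interval runs to 0.156%. For Ifnar2 the thinned shares were 2.02%, 1.65%, 6.62% and 7.73%, and for Jak1 they were 2.75%, 3.30%, 3.23% and 4.37%. No class of this data set is known to lack Irf7, Ifnar2 or Jak1 and could serve as background. Intervals and limits of this kind cover counting error only.

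**Figure D3:**
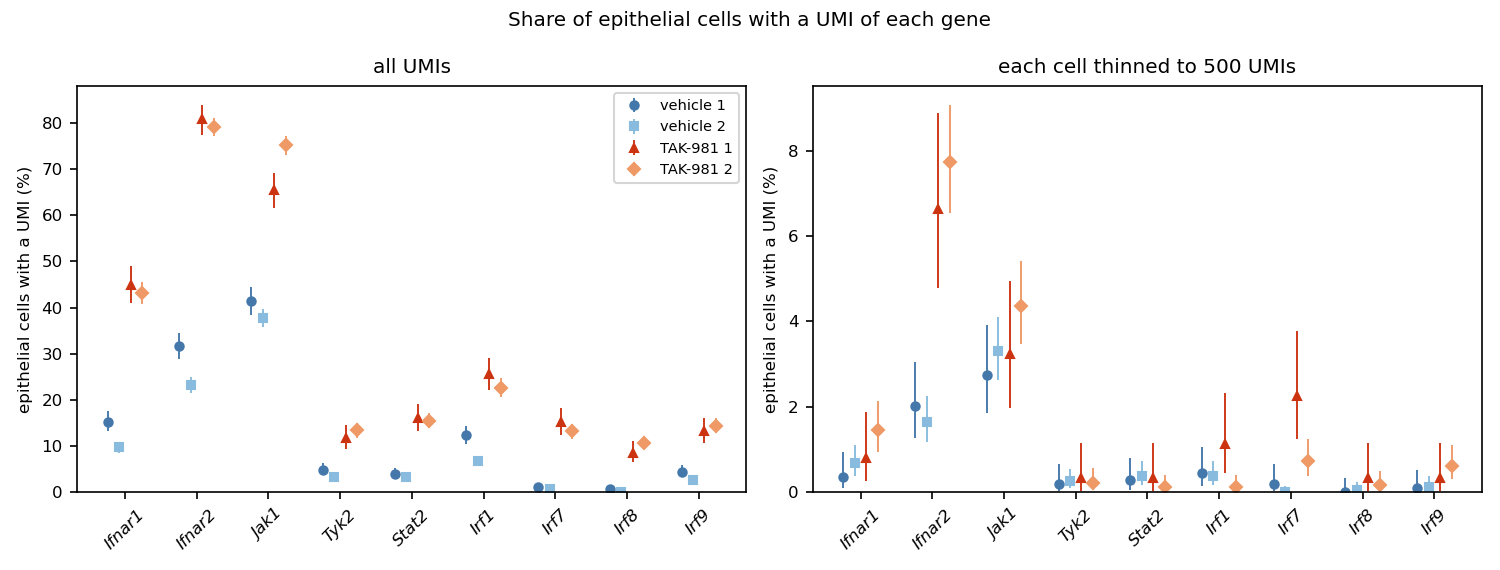
Share of epithelial cells with at least 1 UMI of each gene (y axis, %) in the 4 libraries, at full depth (left) and with every cell thinned to 500 UMIs (right); bars are exact binomial 95% intervals. After thinning, the treated libraries remain above the controls for Ifnar2, at 6.62% and 7.73% against 2.02% and 1.65%, and for Irf7.

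Outside epithelial cells Irf7 passed in no class, yet the treated libraries were above the controls in each of the other 5 in which it was tested. Over all genes tested, 20.1% (fibroblasts) to 23.6% (neutrophils) were above in this way in those classes. The filter on low counts asks for enough UMIs in as many libraries as a group holds. In neutrophils, dendritic and endothelial cells vehicle 2 was below its limit (17.9, 10.7 and 5.94 unscaled CPM). The treated libraries carried Irf7 through the filter there, so the count of classes is in part chosen by the result. In fibroblasts Irf7 measured 60.6, 18.1, 132 and 282 CPM (2.46 ± 0.56, adjusted p 0.0937 by edgeR). Endothelial cells had 83.9, 6.87, 291 and 331 CPM (2.86 ± 0.68, adjusted p 0.0649). Vehicle 2 was the lower control in both, by a wide margin. Both comparisons passed when some libraries were left out: in fibroblasts without vehicle 1 (3.51, adjusted p 6.25e-04) or TAK-981 1 (2.89, adjusted p 0.0231), and in endothelial cells without vehicle 1 (5.35, adjusted p 2.46e-06), TAK-981 1 (2.94, adjusted p 9.79e-07) or TAK-981 2 (2.72, adjusted p 3.09e-07). Without vehicle 2 the estimates fell to 1.77 (adjusted p 0.141) in fibroblasts and 1.82 (adjusted p 0.163) in endothelial cells, and without TAK-981 2 that in fibroblasts was 1.80 (adjusted p 0.104). A group left with 1 library is then assumed to vary like the other.

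Neutrophils had 157, 19, 471 and 553 CPM of Irf7 (2.48 ± 0.74, adjusted p 0.162 by edgeR), from 58, 5, 30 and 34 UMIs. Macrophages or monocytes had 76.9, 15.8, 143 and 279.7 CPM (2.16 ± 0.65, adjusted p 0.224). In dendritic cells the values were 85.7, 12.6, 113 and 150.4 CPM (0.96 ± 0.50, adjusted p 0.410), the vehicle 2 value being 1 UMI. Neutrophils passed without vehicle 1 (4.61, adjusted p 7.24e-07), TAK-981 1 (2.60, adjusted p 0.0203) or TAK-981 2 (2.15, adjusted p 0.0238), and dendritic cells without vehicle 1 (3.31, adjusted p 0.0104). Without vehicle 2 neutrophils had 1.52 (adjusted p 0.131), dendritic cells 0.59 (adjusted p 0.705) and macrophages or monocytes 1.44 (adjusted p 0.358), the last having 3.74 (adjusted p 0.111) without vehicle 1. Keeping only cells of 1000 UMIs or more gave neutrophils an estimate of 1.27 (adjusted p 0.708). T or NK cells had too few UMIs to test, with unscaled levels of 27.5, 20.6, 31.9 and 122 CPM. Vehicle 1 was above vehicle 2 in all 6 classes tested, so the spread between the control mice entered each of these tests.

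Foreign markers also moved in these classes. Their counts use unscaled values, for which the share over all genes was not computed. After TMM scaling 20.1% (fibroblasts) to 23.5% (macrophages or monocytes) of genes lay above in the classes with such counts. Without scaling the median of all genes was shifted by 0.24 on the log2 scale in fibroblasts and 0.31 in dendritic cells. It was shifted by 0.25 in macrophages or monocytes and in endothelial cells. Macrophage or monocyte markers summed to 487, 316, 1373 and 572 unscaled CPM in fibroblasts (6 of 12 higher without overlap) and to 46.5, 119, 1373 and 979 CPM in endothelial cells (5 of 12), where all 10 T or NK markers were at 0. Acinar markers summed to 13.4, 6.37, 180.1 and 121 CPM in fibroblasts (9 of 10), to 11.6, 0, 369 and 128 CPM in endothelial cells (5 of 10), to 38.2, 27.4, 414 and 202 CPM in macrophages or monocytes (10 of 10) and to 10.1, 0, 348 and 142 CPM in dendritic cells (7 of 10). Neutrophil markers in macrophages or monocytes overlapped at 466, 336, 433 and 1058 CPM, 5 of 8 being higher. In neutrophils the class's own markers were lower in the treated libraries (86452, 78289, 35327 and 55769 CPM), the acinar markers summed to 95.3, 42.9, 2925 and 319 CPM, and only 40 and 43 treated cells were present. The macrophage or monocyte markers were lower there too, at 2935, 3659, 1441 and 1722 CPM. In dendritic cells the markers of plasmacytoid dendritic cells, which carry much Irf7 and Irf8, summed to 354, 662, 49.0 and 180 CPM (the 5 markers were all detected). Their part in the Irf7 values was not tested.

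Within macrophages or monocytes the Irf7 level differed widely between clusters. Cluster 19, marked by Ifit2, Ifit3 and Rsad2, had 1111 unscaled CPM in vehicle 1, 1909 in TAK-981 1 and 1684 in TAK-981 2, from 20, 19 and 93 cells, and no vehicle 2 cell fell in it. Cluster 1, marked by Vcan, Ccr2 and Chil3, had 152, 30.2, 284 and 504 CPM. Cluster 3, marked by Folr2 and Stab1, had 58.4, 12.4, 171 and 159.8 CPM, and cluster 0, marked by MHC class II genes, had 32.6, 3.96, 60.6 and 87.9 CPM. The 5 clusters with at least 15 cells in all 4 libraries each had both treated libraries above both controls. The clusters were made from all genes, Irf7 among them, so these levels are a description.

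**Figure D4:**
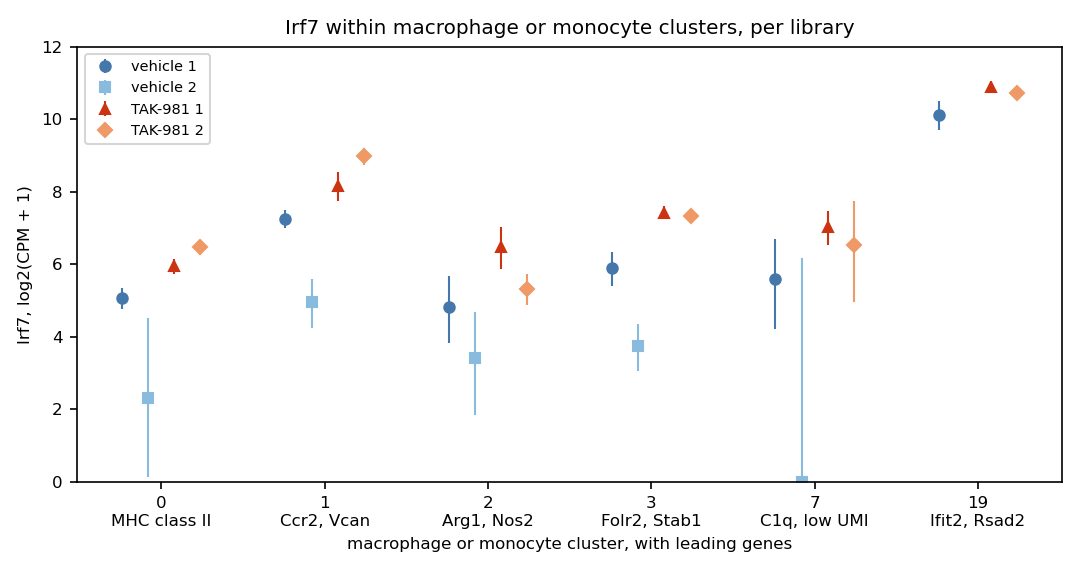
Irf7 level (y axis, log2 of CPM + 1, unscaled) in the 6 macrophage or monocyte clusters (x axis, with leading genes), 1 point per library with exact Poisson 95% intervals of the count. The Ifit2 and Rsad2 cluster stands highest, at 1111 to 1909 CPM, and in each of the other 5 clusters both TAK-981 points lie above both vehicle points.

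Irf8, at chr8:120736358-120756694 on the plus strand, measured 0.765 and 0.163 CPM in vehicle epithelial cells and 4.95 and 6.04 CPM in treated ones, from 9, 3, 97 and 353 UMIs. Vehicle 2, at 0.134 unscaled CPM, was below the limit of the filter on low counts, so the treated libraries carried Irf8 through it. Both treated libraries were above both controls (log2 fold change 3.66 ± 0.70, adjusted p 0.0573 by edgeR), just outside the threshold. Without vehicle 1 the values were 5.04 and 0.0386, and without vehicle 2 they were 2.83 and 0.0872. Both treated libraries were above both controls in 2 of the 3 epithelial clusters with enough cells, from 1 or 2 UMIs in most libraries of cluster 4. These are low levels. The macrophage or monocyte markers given above were also higher in both treated libraries, at 632 unscaled CPM in TAK-981 1 and 193 in TAK-981 2. Their part in the Irf8 values was not tested. In the epithelial cells without a leukocyte marker UMI the log2 fold change was 3.66 ± 1.08 with an adjusted p of 0.110. Thinned to 500 UMIs, the share of epithelial cells with an Irf8 UMI was 0%, 0.0423%, 0.323% and 0.168%, near the limit set by single UMIs.

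In macrophages or monocytes Irf8 measured 169.6, 176, 258 and 204 CPM, both treated libraries being higher (0.42 ± 0.23, adjusted p 0.460 by edgeR). Dendritic cells, where Irf8 stood highest, overlapped at 762, 467, 659 and 602 CPM, and the 95% interval of the log2 fold change ran from -0.68 to 0.68. Its estimate was -0.00, and 0.30 with library totals as the scaling. T or NK cells (272, 36.2, 190.3 and 194 CPM) and endothelial cells (191, 61.8, 85.7 and 105 CPM) also overlapped. In T or NK cells the vehicle libraries lay on either side of the treated ones. Gm20388 overlaps Irf8 on the same strand, so reads common to both could be missing.

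Whether the response of a gene differed between classes was tested in 1 edgeR fit over the 5 classes with 30 or more cells per library, with library as a block. None of the 9 passed over all class terms together, where 0.534% of 11794 genes did. The smallest adjusted p was 0.0961, for Irf8, followed by 0.193 for Ifnar2 and 0.264 for Irf1. For Irf7 it was 0.708, so a difference in its response between classes was not shown. Without TAK-981 2, however, Irf7 (0.0294), Ifnar2 (0.012) and Irf8 (0.0075) passed, and without TAK-981 1 Irf8 did (0.0055). Of the single terms, the Irf8 response in epithelial cells exceeded that in macrophages or monocytes by 3.44 ± 0.69 on the log2 scale (adjusted p 0.0168), where 1.11% of genes were called. That term had an adjusted p of 0.421 without vehicle 2 and of 0.129 without the library block. For Ifnar2 the same term was 1.37 ± 0.37 with an adjusted p of 0.0914.

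Levels across classes are given unscaled, as the mean ± SD over the 4 libraries, and only the same gene is compared between classes. Ifnar1 stood at 121 ± 19.8 CPM in neutrophils, 106 ± 9.72 in macrophages or monocytes, 102 ± 32.6 in dendritic and 96.1 ± 9.08 in T or NK cells, levels that overlapped. Endothelial cells (54.8 ± 18.0 CPM) and fibroblasts (40.8 ± 7.73) followed, and epithelial cells were lowest at 20.4 ± 9.21. Ifnar2 was ordered differently, with macrophages or monocytes (170.2 ± 30.6 CPM) and fibroblasts (163 ± 59.6) first and T or NK cells last (44.8 ± 33.4). It was the one member that was not lowest in epithelial cells, where it stood at 93.9 ± 69.9 CPM.

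Jak1 was highest in T or NK cells, at 369 ± 80.1 CPM, and no library of the next class, neutrophils (255 ± 8.58), reached the lowest T or NK library. Irf8 was highest in dendritic cells, at 550.3 ± 105 CPM, without overlap with macrophages or monocytes at 205 ± 59.5. Tyk2 was also highest in dendritic cells (45.9 ± 21.5 CPM), Irf1 in T or NK cells (88.8 ± 42.1) and Stat2 in endothelial cells (51.1 ± 24.8), but each of these overlapped with the next class. Irf9 was highest in neutrophils (60.5 ± 34.6 CPM), also with overlap.

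Irf7 had the widest spread over libraries, with 261 ± 222 CPM in neutrophils, 171 ± 157 in endothelial cells, 135 ± 125 in macrophages or monocytes, 128 ± 126 in fibroblasts, 83.0 ± 58.3 in dendritic and 50.4 ± 47.7 in T or NK cells. Each neighbouring pair in that order overlapped. Epithelial cells stood apart at 8.27 ± 8.82 CPM, with no library as high as the lowest T or NK library. So the class with the called rise was also the one with the lowest Irf7 level.

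**Figure D5:**
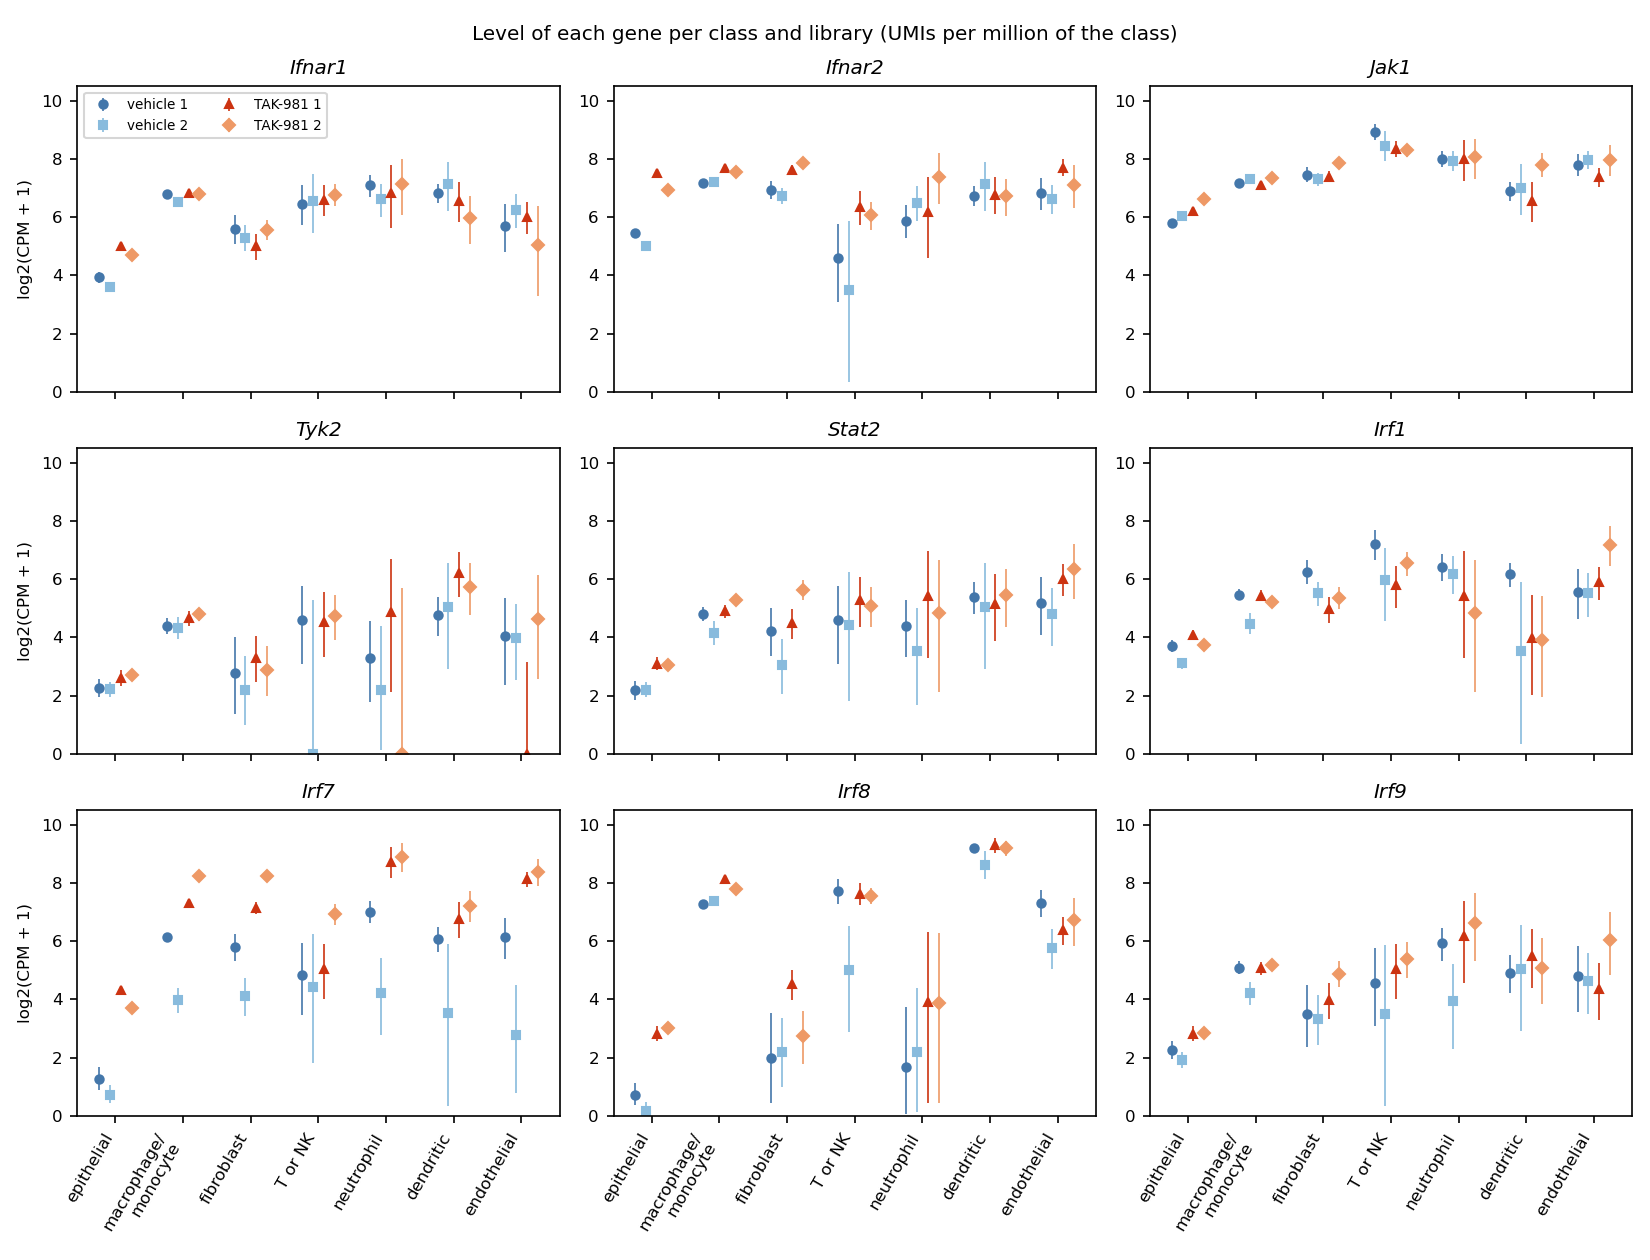
Level of each of the 9 genes (y axis, log2 of CPM + 1, unscaled) in 7 cell classes (x axis), 1 point per library with exact Poisson 95% intervals of the count. Irf7 points spread the most between libraries and are lowest in epithelial cells, while Irf8 is highest in dendritic cells, at 550.3 CPM on average.

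Over the 28 sums of a library and class, log2(CPM + 1) of Irf7 followed that of Ifit3 most closely (Pearson r 0.896), then Ifih1 (0.873) and Gbp2 (0.870), all known interferon targets. Stat2 was nearest to B2m (0.898), Ly6e (0.882) and Parp14 (0.876), and Irf9 to Trim30a (0.930), Ostf1 (0.883) and Trim12c (0.883). For Ifnar2 the nearest genes were Tmed10 (0.838) and Mcfd2 (0.826), which act in traffic between the endoplasmic reticulum and Golgi, and Creb3 (0.786). Ifnar1 was nearest to Rgs2 (0.914), Gmfg (0.903) and Fxyd5 (0.898). Irf8 was nearest to Psme1 (0.863), St8sia4 (0.858) and Capzb (0.848), and Irf1 to Arid1a (0.801) and Cdc42ep3 (0.795). Jak1 was nearest to Gramd1a (0.890), Mier1 (0.890) and Zdhhc18 (0.868), and Tyk2 to Inpp5k (0.789), Wdr1 (0.711) and Vti1a (0.701). Among the members, Stat2 and Irf9 (0.822), Stat2 and Irf7 (0.786) and Irf7 and Irf9 (0.782) were the closest pairs named here, while Ifnar1 and Ifnar2 had an r of 0.0805. The 28 points share 4 libraries and their depths, so these values only describe.

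The other genes of the pathway were read off the same fits. None of the 10 type I and III interferon ligand genes had enough UMIs to be tested in any class. Of the other receptor genes, Ifngr2, a chain of the type II interferon receptor, rose in epithelial cells, from 33.6 and 27.9 CPM to 78.2 and 68.5 CPM (1.25 ± 0.22, adjusted p 0.0495 by edgeR). It lay just inside the threshold and was 1 of 4 genes tested on that list, where 2.31% of all genes were called and 0.549% called higher. No gene of the lists of other JAK and STAT genes or other IRF genes passed in any class. The list of inhibitors of the pathway had 13 genes tested in epithelial cells, none of which passed, while 7 were higher without overlap (27% of all genes tested) and 2 lower (26.7%). Among them Usp18, which blocks signalling at IFNAR2, had 4.25, 4.17, 13.1 and 10.2 CPM (1.46 ± 0.28, adjusted p 0.0587). Usp18 was singled out after its values were seen.

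Of the 12 interferon target genes listed, 11 were in the tables. In epithelial cells none of the 11 passed, 10 were higher without overlap (27% of all genes tested) and their median log2 fold change was 2.18, that of all genes being 0.01. Fibroblasts had 4 of 10 tested genes called, all higher, where 1.01% of all genes were called. These were Rsad2 (0, 2.01, 56.0 and 148 CPM), Cxcl10 (37.7, 12, 171 and 287 CPM), Ifit1 (13.1, 7.02, 63.6 and 210.2 CPM) and Ifit3 (6.55, 3.01, 42.2 and 225 CPM), with adjusted edgeR p-values of 0.0291, 0.0291, 0.0342 and 0.0406. In neutrophils Ifit3 rose (18.9, 3.8, 377 and 553 CPM, adjusted p 0.0215), 1 of 7 tested (0.318% of all genes). In T or NK cells Bst2 rose (35.5, 48.2, 206 and 219 CPM, adjusted p 0.0486), 1 of 4 tested (0.318% of all genes). Macrophages or monocytes, dendritic and endothelial cells had none called of 11, 2 and 9 tested. No gene of any of these lists was called lower in any class.

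The summed level of the 11 targets showed the same split of the vehicle mice as Irf7. In macrophages or monocytes it was 686, 217, 1032 and 1782 CPM, in neutrophils 1663, 452, 5569 and 4599, and in endothelial cells 1412, 165, 1650 and 1560. Vehicle 1 was above vehicle 2 in all 7 classes. In dendritic cells the groups overlapped at 941, 290.3, 530.3 and 912 CPM.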

How the data were processed

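Single-cell 3′ libraries (10x Genomics, version 3.1 chemistry) of 4 tumours were analysed, 2 from vehicle mice and 2 from TAK-981 mice, with groups taken from the sample titles. The authors deposited matrices of raw UMI counts (genes by barcodes) from Cell Ranger 6.1.2 with the mm10 genome, per the submitters' processing notes. Where viability was low, dead cells were removed before loading, per the labels' protocols, without saying for which tumours.

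Barcodes were kept from 500 UMIs and 250 detected genes upward and up to a mitochondrial share of 20%, and likely doublets (41 to 168 a library, found by simulated doublets at a rate of 0.8% per 1000 cells) were removed. Cells were normalised to 10000 UMIs and clustered with scanpy 1.11.5 (2000 variable genes, 30 principal components, 15 neighbours, Leiden resolution 1.0). A cluster was named from a marker list of which at least 3 genes were each seen in at least 10% of its cells, a limit set after the clusters were seen and before any test. Clusters 10 and 18 stayed unnamed. Replicate libraries differed by far more than counting noise (chi-square per degree of freedom 189 for vehicle, 127 for TAK-981).

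For each library and class the UMI counts were added up, and the sums were tested with edgeR 4.0.16 (filterByExpr, TMM, quasi-likelihood F test, Benjamini-Hochberg over all genes of the class, adjusted p below 0.05). The SE of a log2 fold change is its size over the square root of F. The steps were tested on simulated data. Alternatives included DESeq2 1.42.0. The labels name 4 mice, so libraries are separate animals. Depths differ by group, so a difference in treatment and a difference in depth cannot be told apart. Thinning cells or sums evens the number of UMIs sampled, but not other differences between cells that go with depth. Promoter windows come from RefSeq on GRCm38.p6, and gene positions from the GRCm38 annotation. The members and the gene lists were chosen with earlier results of these data known. All 9 members are named in each class tested. Of the pathway lists, genes with an adjusted p below 0.05 are named, at most 6 per class. Genes most like a member are the 3 with the highest Pearson correlation of log2(CPM + 1) over the 28 sums, among genes with a mean of at least 20 CPM, leaving out mitochondrial, ribosomal protein, immunoglobulin and T cell receptor genes; 1 gene so chosen is not reported here.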

Additional observations from a re-analysis of the deposited data

Results flagged for a closer look

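The Irf8 response in epithelial cells exceeded that in macrophages or monocytes by 3.44 on the log2 scale, by a test of the difference itself (edgeR, adjusted p 0.0168), from 0.765, 0.163, 4.95 and 6.04 CPM in epithelial cells against 169.6, 176, 258 and 204 CPM in macrophages or monocytes. Without vehicle 2 the difference was 2.40, and over 8 alternatives it passed in 5. Over all class terms together Irf8 did not pass (adjusted p 0.0961 by edgeR). The vehicle values in epithelial cells rest on 9 and 3 UMIs.

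In dendritic cells both TAK-981 libraries were below both vehicle libraries for Ifnar1 (log2 fold change -0.91) and Ifnar2 (-0.40), while both were above in epithelial cells for Ifnar1 and in 5 other classes for Ifnar2. For Irf1 both were below in fibroblasts (-0.99) and neutrophils (-1.16) and above in endothelial cells (0.78). For dendritic and endothelial cells these differences between classes were not tested, since those classes were too small for the joint fit.

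Cluster 10, led by Hcar2, Ccl3 and Cd274, was left unnamed and entered no comparison. Its Irf7 level was 246 unscaled CPM in TAK-981 2, from 32 UMIs in 61 cells, against 74.4 CPM in vehicle 1 and 18.4 CPM in vehicle 2. Only 5 cells of TAK-981 1 fell in it.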

How the results depend on the processing

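Of 117 alternative values of the counts of members called, 79 stayed within 1.5 times and 38 moved. Of 749 for single genes, 651 kept direction and side of the threshold, 4 no longer passed, 38 newly passed and 56 changed sign. Causes were not tested.

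Irf7 in epithelial cells ranged from 2.90 to 3.95 on the log2 scale over 16 settings and passed in 15, failing without vehicle 2. Ifnar2 there passed in 8 and Irf8 in 7 of 16. The count of members called in epithelial cells was 1 as reported, 0 to 2 with each library left out, 2 with the sums thinned to equal totals or with cells without leukocyte UMIs, 3 with the DESeq2 test, with no filter on low counts, with at most 10% mitochondrial UMIs or with interferon genes left out of clustering, and 4 with library totals only. Elsewhere the count was 0 as reported. It was 0 to 1 with each library left out in fibroblasts, neutrophils, dendritic and endothelial cells, and 0 to 3 for responses that differ between classes. With no filter on low counts it was 1 in macrophages or monocytes, fibroblasts, neutrophils, dendritic and endothelial cells, and 2 for responses that differ between classes. It was 1 with the DESeq2 test in fibroblasts, with library totals only in endothelial cells, and with thinned sums in neutrophils and endothelial cells. The gene called within these classes was Irf7, except in dendritic cells, where Irf1 was called lower with no filter on low counts and without vehicle 2.

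The replicate numbers do not pair the libraries: the labels name no shared source, there are 2 pairs, and the deviations of same-numbered libraries correlated at -0.04 (epithelial) to -0.19 (neutrophil). With the replicate block 2 members were called in epithelial cells, 1 in fibroblasts and 1 in neutrophils. The Irf8 epithelial term had an adjusted p of 0.0692, and small values changed sign (Irf1 in epithelial cells 0.019, and in dendritic cells Jak1 -0.068 and Irf8 0.059). With the crossed replicate block 1 member was called in fibroblasts, neutrophils and endothelial cells each, and Irf8 in dendritic cells was 0.037.

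Other changes of sign were of values near 0 that passed in no setting. In epithelial cells they were Jak1 (0.0074 with no filter, 0.52 with library totals only, 0.095 with at most 10% mitochondrial UMIs, 0.10 with interferon genes left out of clustering), Tyk2 (0.51 with library totals only, 0.10 thinned, 0.094 with at most 10% mitochondrial UMIs, 0.069 with interferon genes left out) and Irf1 (0.014 with no filter, 0.53 with library totals only). In macrophages or monocytes they were Ifnar1 (0.14 with library totals only) and Irf1 (-0.0050 thinned), in fibroblasts Jak1 (-0.040 thinned, -0.014 with at least 1000 UMIs), and in T or NK cells Ifnar1 (0.061 with no filter, 0.22 with library totals only). In neutrophils they were Ifnar1 (-0.26 with no filter, -1.0 with at least 1000 UMIs, -0.072 with at most 10% mitochondrial UMIs) and Jak1 (-0.30, -0.32 and -0.18 in the same settings, -0.014 with no doublet removal, -5.0e-04 with interferon genes left out). In dendritic cells they were Jak1 (-0.23 thinned) and Irf8 (0.0038 with the DESeq2 test, 0.021 with no filter, 0.30 with library totals only, 0.068 with no doublet removal).

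With each library left out, these changed sign and ranged as follows: in epithelial cells Irf1 -0.31 to 0.34, Jak1 -0.32 to 0.18 and Tyk2 -0.14 to 0.022; in macrophages or monocytes Ifnar1 -0.28 to 0.061, Irf1 -0.43 to 0.67 and Irf9 -0.25 to 0.73; in fibroblasts Jak1 -0.23 to 0.24; in T or NK cells Irf1 -1.42 to 0.073, Irf8 -0.48 to 2.41 and Ifnar1 -0.27 to 0.027. In neutrophils Ifnar1 ranged from -0.38 to 0.41, Jak1 from -0.26 to 0.12 and Ifnar2 from -0.25 to 1.27. In dendritic cells Irf8 ranged from -0.30 to 0.43 and Jak1 from -0.61 to 0.60, and in endothelial cells Irf8 from -1.08 to 0.54.

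In 14 of 63 comparisons there were too few UMIs to test: Tyk2 in 4 classes, Stat2 and Irf9 in 3 each, Irf8 in 2, and Irf1 and Irf7 in 1 each. Fibroblasts with Leiden resolution 2.0 or without leukocyte UMIs, and endothelial cells with at most 10% mitochondrial UMIs, left too few cells and were not run.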

Other observations

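Ifnar2, Ifnar1 and Ifngr2 lie next to each other on chromosome 16 with Il10rb, a chain shared by the receptors of interleukin 10 and type III interferons. In epithelial cells Il10rb measured 9.61, 8.4, 32.5 and 19 CPM, with both TAK-981 libraries above both vehicle libraries (1.52 ± 0.32, adjusted p 0.0705 by edgeR). Of the 12 genes tested within 300 kb of this stretch, 10 were higher without overlap (27% of all genes tested in epithelial cells), 1 was lower (26.7%), and Ifngr2 was called (2.31%). The lower one was Son, at 224.8, 259.9, 109 and 163 CPM (-0.83 ± 0.27, adjusted p 0.150). Donson (6.80, 4.39, 15.3 and 13.0 CPM) and Cryzl1 (36.0, 35.2, 77.1 and 63.2 CPM) were among the higher ones, with adjusted p-values of 0.0820 and 0.0763. The 8 genes outside the receptors had a median log2 fold change of 0.59, and 6 of them were higher without overlap. This neighbourhood was chosen after its values were seen, so the counts carry no test.

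Acinar cells, counted mostly in the treated tumours, entered no comparison. Their Irf7 level was 90.6 unscaled CPM in TAK-981 1 and 128 CPM in TAK-981 2, from 165 and 41 cells, with Ifnar2 at 88 and 37.3 CPM and Irf8 at 28.5 and 20.1 CPM.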
